A study of Mus musculus with 15 samples.

Results

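The transcripts described here encode 10 proteins that modify, fold and process collagen in and after the endoplasmic reticulum: the prolyl 4-hydroxylase subunits P4ha1, P4ha2 and P4ha3, the lysyl hydroxylases Plod1, Plod2 and Plod3, the prolyl 3-hydroxylase P3h1 with its partner Crtap, the collagen chaperone Serpinh1 and the procollagen processing enhancer Pcolce. They were taken from the gene table by symbol, and all 10 occur among its 54532 genes. Poly-A RNA sequencing was done on left ventricles from C57BL/6JRj mice, all female and 12 to 18 weeks old, 8 days after surgery, in 3 groups of 5 libraries. The GSK group had an infarction and received GSK-343, an inhibitor of the histone methyltransferase EZH2, at 20 mg/kg by daily intraperitoneal injection from 6 h after surgery until day 7. The MI group had an infarction made by tying off the left descending coronary artery for good and received the vehicle, 20% Captisol. The Sham group is the control for the surgery and also received the vehicle. The sample names of the GSK group give the compound only, and that these mice were infarcted is taken from the treatment protocol. The first and the second Sham library are each a mix of 2 animals. In the GSK group, replicates 1 and 2 have names with the letter G, where all other libraries have S.

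Collagen chains are hydroxylated while they are still unfolded. Prolyl 4-hydroxylase, a tetramer of a catalytic alpha subunit (P4ha1, P4ha2 or P4ha3) and protein disulfide isomerase (P4hb), makes the hydroxyproline that holds the triple helix together at body temperature, and lysyl hydroxylases make the hydroxylysine used for sugar attachment and cross-links. The hydroxylases need iron, oxygen, 2-oxoglutarate and vitamin C. Serpinh1 (HSP47) binds the folded helix on its way to the Golgi, and Pcolce speeds the removal of the C-propeptide outside the cell. In the heart, fibroblasts are the main source of fibrillar collagen, and the infarct scar is built from it.

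Fragments assigned to genes numbered 21.5 M to 26.8 M a library. Values are FPKM as the authors deposited them, that is, fragments relative to gene length and to a scaling total of each library, and 1 fragment per kilobase was worth 0.0357 to 0.0478 FPKM. 3 of the libraries stood apart from the others of their group in the share of FPKM from mitochondrially encoded genes. It was 46.4% and 48.7% in GSK replicates 3 and 4, against 31.8% to 32.7% in the other GSK libraries. It was 40.6% in MI replicate 4, against 23.2% to 27.6% in the other MI libraries, and 41.2% to 42.2% in the Sham libraries. Differences are given as log2(FPKM + 1) with the standard error of limma, which was fitted to all 15 libraries and 12585 genes, and a call needed an adjusted p (Benjamini-Hochberg) under 0.05. Because whole ventricle was sequenced, a higher level cannot be told apart from more cells of a type that carries the transcript. Heart muscle content was checked with 10 cardiomyocyte markers, whose summed level was 15556 to 22659 FPKM in GSK, 11973 to 24552 FPKM in MI and 19478 to 24885 FPKM in Sham libraries, with none at 0. The summed level of 5 atrial markers varied widely within each group. It was 332 to 2108 FPKM in GSK, 280 to 2100 FPKM in MI and 106 to 1761 FPKM in Sham libraries. Its part in the differences was not tested.

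Promoter sequences are shown for the 3 prolyl 4-hydroxylase subunits, whose differences between MI and Sham ventricles were the smallest and the largest of the set, and for Serpinh1, the most abundant of the 10 transcripts. Each line gives the 250 bases before the RefSeq start site on GRCm38.p6, read 5′ to 3′ on the gene's strand. Capitals mark ACGTG or its reverse complement, the core of the hypoxia response element.
P4ha1 (chr10:59323046-59323295, + strand): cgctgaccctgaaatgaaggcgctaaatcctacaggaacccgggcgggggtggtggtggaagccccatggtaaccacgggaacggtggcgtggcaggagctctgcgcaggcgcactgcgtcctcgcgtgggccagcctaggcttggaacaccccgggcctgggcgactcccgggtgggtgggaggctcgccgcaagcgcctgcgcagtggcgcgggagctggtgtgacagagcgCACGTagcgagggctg
P4ha2 (chr11:54100674-54100923, + strand): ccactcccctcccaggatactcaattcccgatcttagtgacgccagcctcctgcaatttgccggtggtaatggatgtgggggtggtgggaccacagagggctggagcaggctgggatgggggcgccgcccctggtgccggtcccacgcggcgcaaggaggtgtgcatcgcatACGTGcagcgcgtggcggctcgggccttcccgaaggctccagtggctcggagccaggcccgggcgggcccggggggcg
P4ha3 (chr7:100285270-100285519, + strand): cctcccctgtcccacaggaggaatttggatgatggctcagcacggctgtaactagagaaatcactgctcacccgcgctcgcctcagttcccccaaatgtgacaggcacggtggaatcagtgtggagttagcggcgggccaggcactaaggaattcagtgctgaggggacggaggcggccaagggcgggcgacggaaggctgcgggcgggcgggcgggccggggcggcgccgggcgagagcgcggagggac
Serpinh1 (chr7:99353240-99353489, - strand): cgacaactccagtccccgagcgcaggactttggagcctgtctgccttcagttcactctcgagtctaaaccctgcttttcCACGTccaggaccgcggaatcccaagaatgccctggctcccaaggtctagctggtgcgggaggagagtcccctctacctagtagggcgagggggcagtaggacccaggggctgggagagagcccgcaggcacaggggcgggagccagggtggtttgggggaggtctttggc
The RefSeq start used for P4ha2, at 54100924, lies inside the gene as the deposited table gives it, from 54100095. For the other 3 genes the start is that of the table. ACGTG lay 16 bases before the start in P4ha1, 78 in P4ha2 and 171 in Serpinh1, and no copy was found in the P4ha3 window. RefSeq held windows for 9 of the 10 genes, 10 windows in all since P3h1 has an alternative start; Plod2 had no entry. The motif occurred in 5 of these 10 windows, against 16.6% of all 32851 promoter windows of the same length. Of the others, also searched on both strands, the CCAAT box (CCAAT) was in 3 of 10 windows (33.8% of all), CCACG, a part of the endoplasmic reticulum stress element, in 7 (28.3%), the GC box GGGCGG in 7 (32.7%), the SMAD element variant CAGACA in 1 (17.1%), TATAAA in 2 (12.4%) and the heat shock unit pair GAANNTTC in 0 (6.69%). ACGTG and CCACG overlap in 4 letters, so that a CCACGT run counts for both, as in P3h1 and Serpinh1. A match describes the sequence only, and its absence says only that these letters are not in this window.

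Infarction was accompanied by higher levels of most of the set. In MI against Sham ventricles 8 of the 10 transcripts rose and 0 fell, where 21.9% of all tested genes were called higher and 21.9% lower. The 8 were Plod1, Plod2, Plod3, Serpinh1, P3h1, Crtap, Pcolce and P4ha3. All 10 passed the filter on low values, but P4ha3 did so through infarcted libraries alone, so that a difference from Sham was built into its passing, and without it 7 of 9 were called. P4ha1 and P4ha2, which made up nearly all prolyl 4-hydroxylase transcript in Sham ventricles, were not called. The median log2 difference over the 10 was 0.77, against -0.02 over all tested genes. For 8 of the 10, every MI library lay above every Sham library, which held for 15.7% of tested genes. These 8 include P4ha1 and, with the same limit, P4ha3, but not Plod2. With the mitochondrial share as a covariate 4 of the 10 were called, namely Plod3, P3h1, Crtap and Pcolce. Of all 12585 genes, 2044 were then called higher and 2269 lower. The share was 41.2% to 42.2% in Sham and 23.2% to 40.6% in MI libraries, so the covariate cannot be fully told apart from the groups. Without the 3 libraries of high mitochondrial share 7 were called, and over all genes 2867 were called higher and 2977 lower.

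**Figure D1:**
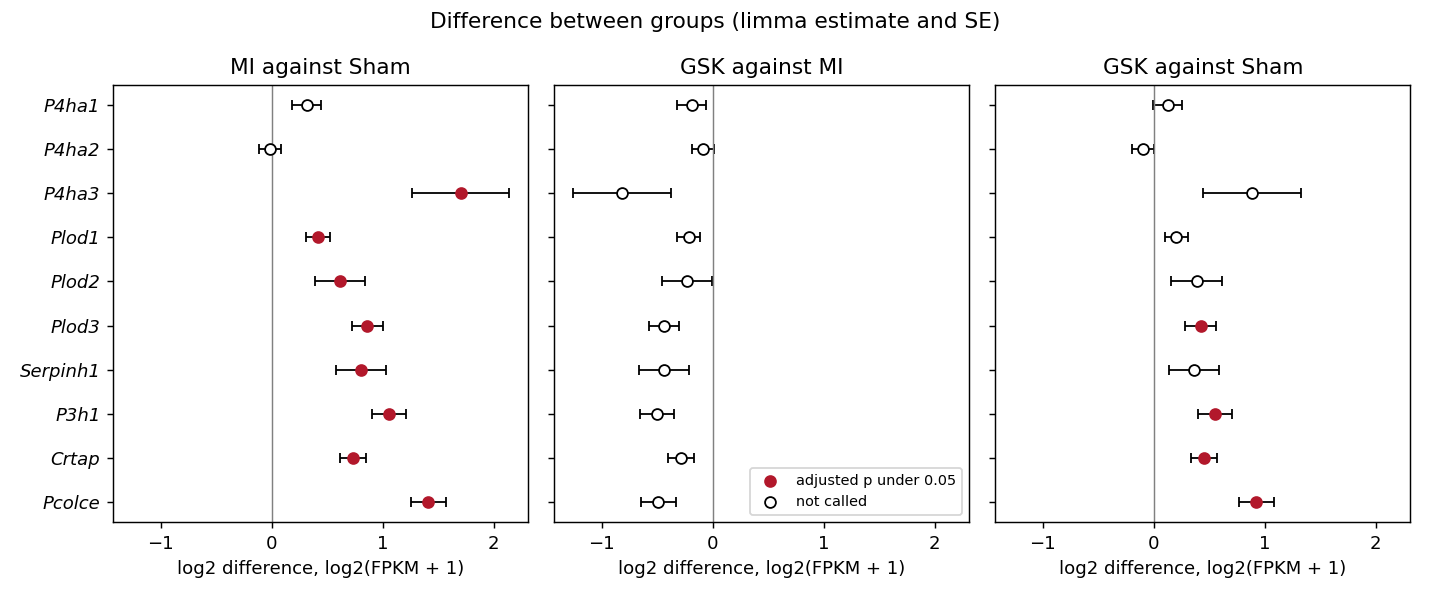
Log2 difference of log2(FPKM + 1) for each of the 10 transcripts, with the SE of the limma fit as bars, for MI against Sham, GSK against MI and GSK against Sham. Filled points passed an adjusted p of 0.05: 8 in MI against Sham, 0 in GSK against MI and 4 in GSK against Sham.

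In GSK against MI ventricles none of the 10 was called, and neither was any of the 12585 genes. All 10 log2 differences were below 0, as were 49.6% of those of all tested genes. They ran from -0.82 ± 0.44 for P4ha3 to -0.08 ± 0.10 for P4ha2, with a median of -0.36, against 0.00 for all genes. The 10 varied together within groups, with a median pair correlation of 0.67 for deviations from group means. Their signs are therefore not 10 separate observations. The adjusted p of limma for the 10 ran from 0.118 to 0.649. At an unadjusted p under 0.05, limma had 4 lower and 0 higher, namely Plod3, P3h1, Crtap and Pcolce, where 10.1% of tested genes were lower and 10.8% higher by that mark. Over all genes that makes 1274 lower and 1364 higher, and with voom on the recovered fragments 2 genes passed the adjusted threshold. Without the 3 libraries of high mitochondrial share, and with that share as a covariate, none of the 10 had an unadjusted p under 0.05. Over all genes the counts by that mark were smaller too. They were 501 lower and 730 higher without the 3 libraries, and 581 lower and 832 higher with the covariate. The sign turned for P4ha2 (0.07) and Serpinh1 (0.05) with the covariate, and for P4ha2 (0.003) without the 3 libraries. Without GSK replicate 5, Pcolce passed the limma threshold with a log2 difference of -0.60 and an adjusted p of 0.0497. In that setting 288 of all tested genes passed, 154 higher and 134 lower.

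In GSK against Sham ventricles 4 of the 10 rose and 0 fell, where 10.8% of tested genes were called higher and 7.58% lower. The 4 were Plod3, P3h1, Crtap and Pcolce, and the median log2 difference over the 10 was 0.40, against -0.02 over all tested genes. For Pcolce, Crtap and P3h1 every GSK library lay above every Sham library, which held for 10.6% of tested genes. It did for P4ha3 too, with the limit given above. Each pair of the 3 comparisons has a group in common, so that they are not independent.

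**Figure D2:**
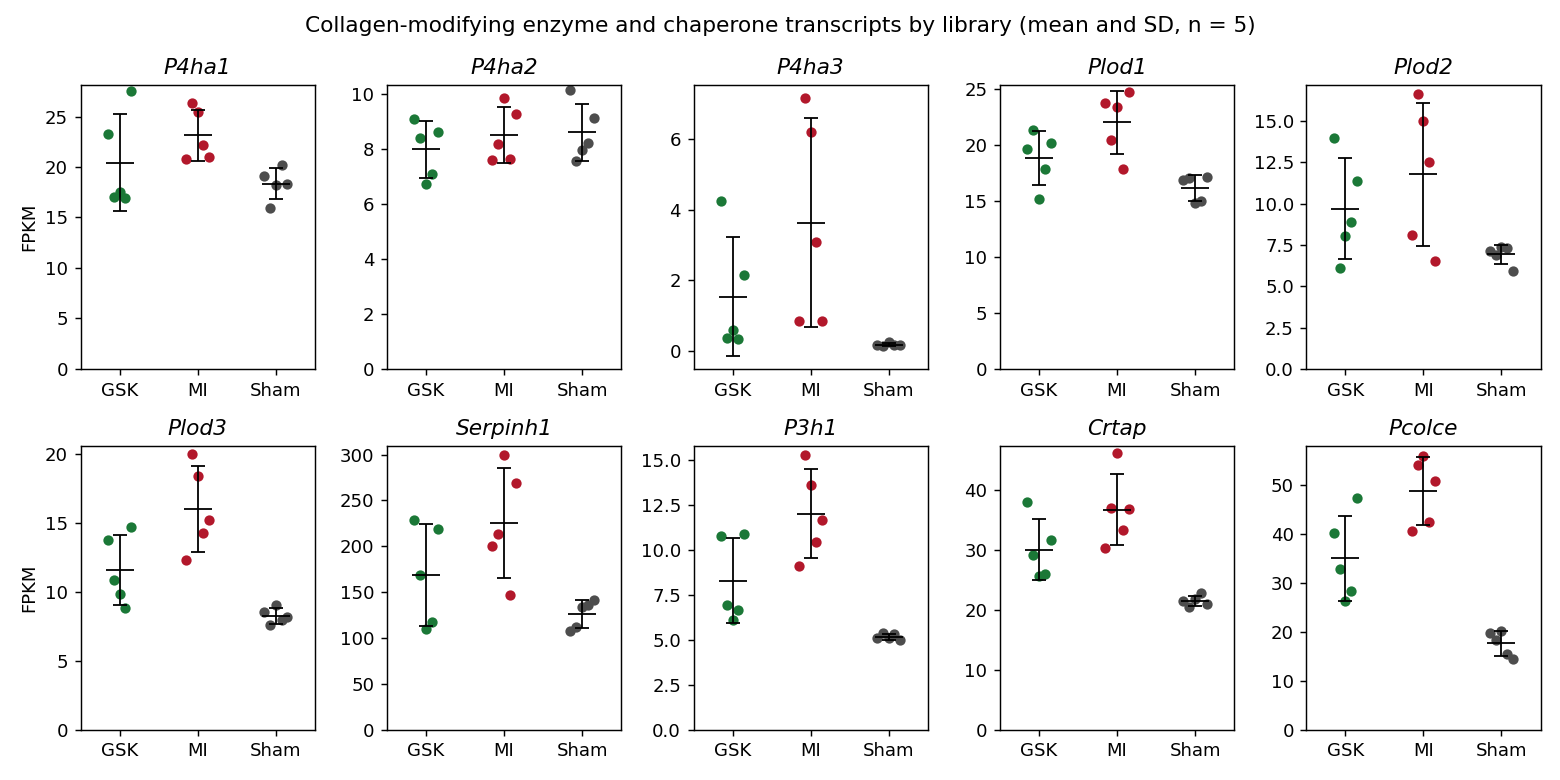
FPKM of each of the 10 transcripts in each library (points), with the group mean and SD (bars, n = 5), for GSK, MI and Sham ventricles; each panel has its own linear axis. The Sham points of P3h1 lie between 4.97 and 5.36 FPKM, below all MI and GSK points, while those of P4ha2 overlap both other groups.

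P4ha1 is the catalytic subunit found in most tissues. In replicate order its levels were 23.3, 17.0, 17.5, 16.9 and 27.5 FPKM in GSK ventricles, 20.8, 26.3, 25.4, 22.2 and 20.95 FPKM in MI ventricles and 19.1, 15.96, 18.3, 20.2 and 18.3 FPKM in Sham ventricles. All MI libraries lay above all Sham libraries, but the gap was narrow, and in the GSK group replicates 1 and 5 were high while the other 3 lay within the Sham range. The means were 20.4 ± 4.77 FPKM in GSK, 23.1 ± 2.57 FPKM in MI and 18.4 ± 1.55 FPKM in Sham ventricles (SD, n = 5 each). limma gave 0.32 ± 0.13 for MI against Sham (adjusted p = 0.0578), a difference that was not called. It was called in 3 of 27 alternative analyses, among them the one without GSK replicate 5 (adjusted p = 0.0255). The difference was -0.19 ± 0.13 for GSK against MI (adjusted p = 0.397) and 0.13 ± 0.13 for GSK against Sham (adjusted p = 0.514).

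P4ha2, the subunit known from cartilage and other matrix-rich tissue, showed no separation of the groups. Its levels were 9.08, 8.39, 6.71, 7.06 and 8.62 FPKM in GSK ventricles, 7.59, 8.17, 9.83, 7.64 and 9.26 FPKM in MI ventricles and 10.1, 7.56, 7.94, 8.20 and 9.12 FPKM in Sham ventricles. The 3 groups overlapped, and their means were 7.97 ± 1.03 FPKM in GSK, 8.50 ± 1.00 FPKM in MI and 8.59 ± 1.04 FPKM in Sham ventricles (SD, n = 5 each). limma gave -0.01 ± 0.10 for MI against Sham (adjusted p = 0.923), with a sign that turned in 7 of 27 alternative analyses, the largest value being 0.07 with mitochondrial genes left out and totals equalised. Relative to P4ha1 in the same library, P4ha2 was lower in MI than in Sham ventricles. The log2 ratio of P4ha2 to P4ha1 was -1.43 ± 0.19 in MI and -1.09 ± 0.15 in Sham ventricles (SD, n = 5 each), with an adjusted p of 0.0476 by an exact two-sided permutation test. With 1 library left out, that call was lost without any of MI replicates 1 to 4 or of the Sham replicates, with adjusted exact p values of 0.0635 to 0.0952.

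P4ha3 was the least abundant of the 10 and had the largest difference. Levels were 4.24, 0.375, 0.594, 0.342 and 2.16 FPKM in GSK ventricles, 0.855, 7.17, 6.21, 3.10 and 0.854 FPKM in MI ventricles and 0.158, 0.141, 0.248, 0.180 and 0.163 FPKM in Sham ventricles. All infarcted libraries lay above all Sham libraries. In MI ventricles replicates 1 and 5 were far below replicates 2, 3 and 4, and in GSK ventricles replicates 1 and 5 were far above the other 3. The Sham values rest on 11 to 17 fragments per library, against 23 to 364 in GSK and 69 to 629 in MI libraries. The gene passed the filter on low values, at least 1 FPKM in at least 5 libraries, through 3 MI and 2 GSK libraries alone, so a difference from Sham was built into its passing. Mean levels were 1.54 ± 1.68 FPKM in GSK, 3.64 ± 2.95 FPKM in MI and 0.178 ± 0.0413 FPKM in Sham ventricles (SD, n = 5 each), and the MI mean was 20.4 times and the GSK mean 8.66 times the Sham mean. On the log2(FPKM + 1) scale, which understates differences of such low values, limma gave 1.70 ± 0.44 for MI against Sham (adjusted p = 0.00597). With the mitochondrial share as covariate this was 1.34 (adjusted p = 0.101), and the other 25 alternatives that could test it kept the call. The difference was -0.82 ± 0.44 for GSK against MI (adjusted p = 0.295) and 0.89 ± 0.44 for GSK against Sham (adjusted p = 0.167), neither of them called.

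The make-up of the prolyl 4-hydroxylase transcripts shifted accordingly. P4ha3 made up 4.50% ± 4.32 of the summed P4ha1, P4ha2 and P4ha3 level in GSK, 9.45% ± 6.68 in MI and 0.659% ± 0.159 in Sham ventricles (SD, n = 5 each). Its highest share was 17.2%, in MI ventricles, and P4ha1 held 61.3% to 71.9% in every library. The log2 ratio of P4ha3 to P4ha1, with 0.1 FPKM added to both, was higher by 2.94 ± 0.58 (SE) in MI than in Sham ventricles and by 1.83 ± 0.54 in GSK than in Sham ventricles. Both differences had the smallest p that an exact permutation test of 5 against 5 can give, 0.00794, or 0.0173 after adjustment over the 48 ratio tests made. Between GSK and MI ventricles the ratio differed by -1.11 ± 0.78 (adjusted exact p = 0.320).

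Among the lysyl hydroxylases, which act on helical or telopeptide lysines, Plod1 is the helical enzyme. It stood at 19.6, 21.3, 15.2, 17.8 and 20.1 FPKM in GSK ventricles, 23.8, 20.5, 23.3, 17.8 and 24.7 FPKM in MI ventricles and 16.8, 17.0, 14.8, 14.96 and 17.1 FPKM in Sham ventricles. Every MI library lay above every Sham library, if only just for replicate 4, and the GSK libraries reached into both ranges. Mean levels were 18.8 ± 2.40 FPKM in GSK, 22.0 ± 2.82 FPKM in MI and 16.1 ± 1.17 FPKM in Sham ventricles (SD, n = 5 each). limma gave 0.42 ± 0.10 for MI against Sham (adjusted p = 0.00473), a call kept in 26 of 27 alternatives and lost with the mitochondrial share as covariate (0.16, adjusted p = 0.210). It gave -0.22 ± 0.10 for GSK against MI (adjusted p = 0.250) and 0.20 ± 0.10 for GSK against Sham (adjusted p = 0.180). The GSK against Sham difference was called in 2 of 27 alternatives. It was 0.32 without the 3 libraries of high mitochondrial share (adjusted p = 0.0201). With mitochondrial genes left out and totals equalised it was 0.33 (adjusted p = 0.0194).

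Plod2 hydroxylates the telopeptide lysines from which the cross-links typical of scar tissue form. Its libraries read 14.0, 6.12, 8.02, 8.92 and 11.4 FPKM in GSK ventricles, 8.12, 16.7, 15.03, 12.5 and 6.52 FPKM in MI ventricles and 7.14, 6.88, 7.37, 7.33 and 5.92 FPKM in Sham ventricles. GSK replicate 2 and MI replicate 5 lay within the Sham range and the other infarcted libraries above it, by most in GSK replicates 1 and 5 and MI replicates 2, 3 and 4. The mean levels were 9.68 ± 3.06 FPKM in GSK, 11.8 ± 4.36 FPKM in MI and 6.93 ± 0.597 FPKM in Sham ventricles (SD, n = 5 each). limma called it higher in MI than in Sham ventricles at 0.62 ± 0.23 (adjusted p = 0.0382), but 13 of 27 alternatives did not. Among these were the ones without MI replicate 2, 3 or 4 and without any 1 Sham library, where the log2 difference was 0.48 to 0.64 and the adjusted p 0.0545 to 0.101. For GSK against MI the difference was -0.23 ± 0.23 (adjusted p = 0.572), and for GSK against Sham 0.39 ± 0.23 (adjusted p = 0.239). A gene of the TEC class, Gm38391, overlaps Plod2 on the other strand with at most 0.851 FPKM, and the strand setting of the counting is not given in the sources used here.

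Plod3 carries lysyl hydroxylase and also collagen glycosyltransferase activity. The level was 13.7, 10.9, 9.83, 8.83 and 14.7 FPKM in GSK ventricles, 12.3, 20.0, 18.4, 14.3 and 15.2 FPKM in MI ventricles and 8.55, 7.55, 9.06, 7.98 and 8.13 FPKM in Sham ventricles. All MI libraries were above all Sham libraries, and GSK replicates 1, 2, 3 and 5 were as well, replicate 4 being within the Sham range. The means were 11.6 ± 2.52 FPKM in GSK, 16.02 ± 3.12 FPKM in MI and 8.25 ± 0.574 FPKM in Sham ventricles (SD, n = 5 each). limma gave 0.86 ± 0.14 for MI against Sham (adjusted p = 0.000257), called in 27 of 27 alternatives, and 0.42 ± 0.14 for GSK against Sham (adjusted p = 0.0466), called in 14 of 27. With 1 library left out, the GSK call was lost without GSK replicate 1, 2 or 5, MI replicate 3 or any 1 Sham library, with log2 differences of 0.34 to 0.45 and adjusted p values of 0.05004 to 0.122. For GSK against MI the difference was -0.44 ± 0.14 (adjusted p = 0.125). Plod3 overlaps Znhit1 on the opposite strand, which reached 16.9 FPKM, and the microRNA gene Mir702, so its level is uncertain where fragments could be shared.

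The shares of Plod1, Plod2 and Plod3 in the sum of the 3 lysyl hydroxylases each overlapped between the 3 groups. Plod1 made up 47.3% ± 5.65 of the summed Plod1, Plod2 and Plod3 level in GSK, 44.8% ± 8.19 in MI and 51.5% ± 3.17 in Sham ventricles (SD, n = 5 each). Plod2 held 23.9% ± 4.92 in GSK, 23.2% ± 6.65 in MI and 22.1% ± 2.03 in Sham ventricles. Plod3 held 28.8% ± 2.55 in GSK, 32.0% ± 2.61 in MI and 26.4% ± 1.79 in Sham ventricles. The log2 ratios of Plod2 to Plod1 and to Plod3 passed the threshold in none of the 3 comparisons (adjusted exact permutation p of 0.321 or more). For Plod2 to Plod1 in MI against Sham the difference was 0.23 ± 0.33 (SE), an error too wide to show that the ratio stayed the same. Without GSK replicate 2 that ratio was higher in GSK than in Sham ventricles by 0.41 (adjusted exact p = 0.0331).

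P3h1 makes the prolyl 3-hydroxylation of fibrillar collagen chains and works in a complex with Crtap and cyclophilin B. Its level was 10.8, 6.96, 6.11, 6.66 and 10.9 FPKM in GSK ventricles, 9.12, 15.3, 13.6, 10.4 and 11.7 FPKM in MI ventricles and 5.11, 5.36, 5.08, 5.32 and 4.97 FPKM in Sham ventricles. The Sham values were close together, and every MI and every GSK library lay above them. The mean levels were 8.29 ± 2.36 FPKM in GSK, 12.0 ± 2.47 FPKM in MI and 5.17 ± 0.167 FPKM in Sham ventricles (SD, n = 5 each). limma gave 1.06 ± 0.15 for MI against Sham (adjusted p = 0.000124; called in 27 of 27 alternatives) and 0.55 ± 0.15 for GSK against Sham (adjusted p = 0.0238; called in 20 of 27). With 1 library left out, the GSK call was lost without GSK replicate 1, GSK replicate 5 or Sham replicate 5, at log2 differences of 0.46 to 0.54 and adjusted p values of 0.0543 to 0.0669. For GSK against MI the difference was -0.50 ± 0.15 (adjusted p = 0.118), the lowest adjusted p of the 10 in that comparison.

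Crtap is the non-catalytic partner that stabilises P3h1. It was measured at 37.9, 29.2, 25.6, 26.0 and 31.6 FPKM in GSK ventricles, 30.4, 37.0, 46.1, 33.3 and 36.8 FPKM in MI ventricles and 21.5, 20.5, 21.7, 22.7 and 20.97 FPKM in Sham ventricles. As for P3h1, all infarcted libraries lay above all Sham libraries, and the GSK values overlapped the lower MI values. Mean levels were 30.04 ± 5.04 FPKM in GSK, 36.7 ± 5.90 FPKM in MI and 21.5 ± 0.837 FPKM in Sham ventricles (SD, n = 5 each). limma gave 0.73 ± 0.12 for MI against Sham (adjusted p = 0.000237; 27 of 27 alternatives), -0.28 ± 0.12 for GSK against MI (adjusted p = 0.188) and 0.45 ± 0.12 for GSK against Sham (adjusted p = 0.0174; 24 of 27 alternatives). The GSK against Sham call was lost without the 2 mixed Sham libraries (adjusted p = 0.0763), without the 2 GSK libraries whose names carry G (adjusted p = 0.0766) and with a replicate block (adjusted p = 0.0506). The transcript 4930520O04Rik overlaps Crtap on the other strand with at most 0.458 FPKM.

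P3h1 gained on Crtap in MI ventricles. The log2 ratio of P3h1 to Crtap was -1.87 ± 0.22 in GSK, -1.61 ± 0.20 in MI and -2.03 ± 0.07 in Sham ventricles (SD, n = 5 each). Every MI ratio lay above every Sham ratio, a difference of 0.42 ± 0.09 (SE; adjusted exact p = 0.0173). It differed by -0.26 ± 0.13 between GSK and MI ventricles (adjusted exact p = 0.168) and by 0.16 ± 0.10 between GSK and Sham ventricles (adjusted exact p = 0.299). Without GSK replicate 5 the ratio differed by -0.35 between GSK and MI ventricles (adjusted exact p = 0.0331).

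Serpinh1 was the most abundant of the 10 in every library. It reached 229, 169, 110.3, 117 and 219 FPKM in GSK ventricles, 200.2, 214, 300.1, 147 and 269 FPKM in MI ventricles and 107, 112, 134, 135 and 141 FPKM in Sham ventricles. Every MI library lay above every Sham library, with replicate 4 closest, and the GSK group split into replicates 1, 2 and 5 above the Sham range and replicates 3 and 4 at its lower end. MI replicate 4 and GSK replicates 3 and 4 are the libraries of high mitochondrial share. Mean levels were 169 ± 55.2 FPKM in GSK, 226 ± 60.0 FPKM in MI and 126 ± 15.3 FPKM in Sham ventricles (SD, n = 5 each). limma gave 0.80 ± 0.22 for MI against Sham (adjusted p = 0.00928), -0.44 ± 0.22 for GSK against MI (adjusted p = 0.270) and 0.36 ± 0.22 for GSK against Sham (adjusted p = 0.261). Without the 3 libraries the differences were 0.95 for MI against Sham (adjusted p = 0.000455), -0.25 for GSK against MI (adjusted p = 0.624) and 0.70 for GSK against Sham (adjusted p = 0.0120), so that the last was then called. With the mitochondrial share as covariate the MI against Sham difference was 0.13 (adjusted p = 0.547), and without the 2 mixed Sham libraries it missed the threshold (adjusted p = 0.0681). The part of the mitochondrial share in these differences was not tested further.

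Pcolce had the lowest p of the 10 in both comparisons with Sham. Its values were 40.2, 32.9, 26.4, 28.3 and 47.4 FPKM in GSK ventricles, 40.5, 54.1, 55.9, 42.5 and 50.8 FPKM in MI ventricles and 19.8, 18.4, 20.2, 15.5 and 14.5 FPKM in Sham ventricles. Each MI and each GSK library lay above each Sham library, and 4 of the 5 GSK values were below all MI values. The means were 35.0 ± 8.74 FPKM in GSK, 48.8 ± 6.93 FPKM in MI and 17.7 ± 2.55 FPKM in Sham ventricles (SD, n = 5 each). limma gave 1.41 ± 0.16 for MI against Sham (adjusted p = 2.73e-05) and 0.93 ± 0.16 for GSK against Sham (adjusted p = 0.00163), both called in 27 of 27 alternatives, and -0.49 ± 0.16 for GSK against MI (adjusted p = 0.125). In Sham ventricles its mean level was the fourth of the 10, close to those of P4ha1 and Plod1, and in GSK and MI ventricles it was the second after Serpinh1. Relative to Serpinh1 it gained: the log2 ratio of Serpinh1 to Pcolce was 2.24 ± 0.20 in GSK, 2.18 ± 0.28 in MI and 2.83 ± 0.35 in Sham ventricles (SD, n = 5 each). The ratio differed by -0.65 ± 0.20 between MI and Sham ventricles (SE; adjusted exact p = 0.0173) and by -0.59 ± 0.18 between GSK and Sham ventricles (adjusted exact p = 0.0331). With 1 library left out, the GSK against Sham call was lost without any of GSK replicates 2 to 5 or Sham replicates 2 to 5, at adjusted exact p values of 0.0586 to 0.0663. Fbxo24 and Gm36266 overlap Pcolce with at most 0.620 FPKM.

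In order of mean level, GSK ventricles had Serpinh1, Pcolce, Crtap, P4ha1, Plod1, Plod3, Plod2, P3h1, P4ha2 and P4ha3. In MI ventricles P3h1 and Plod2 changed places, at 12.0 and 11.8 FPKM, and the rest kept this order. Sham ventricles had Serpinh1, Crtap, P4ha1, Pcolce, Plod1, P4ha2, Plod3, Plod2, P3h1 and P4ha3. Neighbours in the order overlapped in most places. In GSK ventricles the values of Serpinh1 and Pcolce, of Plod1 and Plod3 and of P4ha2 and P4ha3 did not overlap, and in MI ventricles those of Serpinh1 and Pcolce, of Crtap and P4ha1 and of P4ha2 and P4ha3. In Sham ventricles P4ha1, Pcolce and Plod1 overlapped, as did P4ha2 and Plod3, and the other neighbours were apart.

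Within the groups the transcripts varied together. In GSK ventricles replicates 1 and 5 had the 2 highest levels for 9 of the 10 transcripts, all but Plod1, and in MI ventricles replicates 2 and 3 did for 7, all but P4ha2, Plod1 and Serpinh1. The same libraries had the highest sums of Col1a1, Col1a2 and Col3a1, of activated fibroblast markers and of macrophage and monocyte markers. The sum of general fibroblast markers was instead highest in GSK replicates 3 and 4 and MI replicates 1 and 4. Epicardial and mesothelial markers had their highest sums in replicates 1 and 5 of both groups. In GSK ventricles replicates 1 and 5 also had the highest sums of atrial markers, while in MI ventricles replicates 2 and 4 did. The Sham libraries showed no such shared order, with 7 different pairs on top. P4ha3 had a coefficient of variation of 109% in GSK, 81.2% in MI and 23.2% in Sham ventricles, the widest of the 10 in each group. The 45 pairs of members had Pearson correlations of 0.08 to 0.98 over the 15 libraries, with a median of 0.77, and of -0.30 to 0.94 with a median of 0.67 once group means were taken off. Libraries share depth and cell make-up across all genes, so these are descriptions only. P4ha3 and Plod2 followed each other (r = 0.95 over the 15 libraries, 0.94 for deviations), while the correlations of P4ha2 with the other members over the 15 libraries were 0.08 to 0.48.

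**Figure D3:**
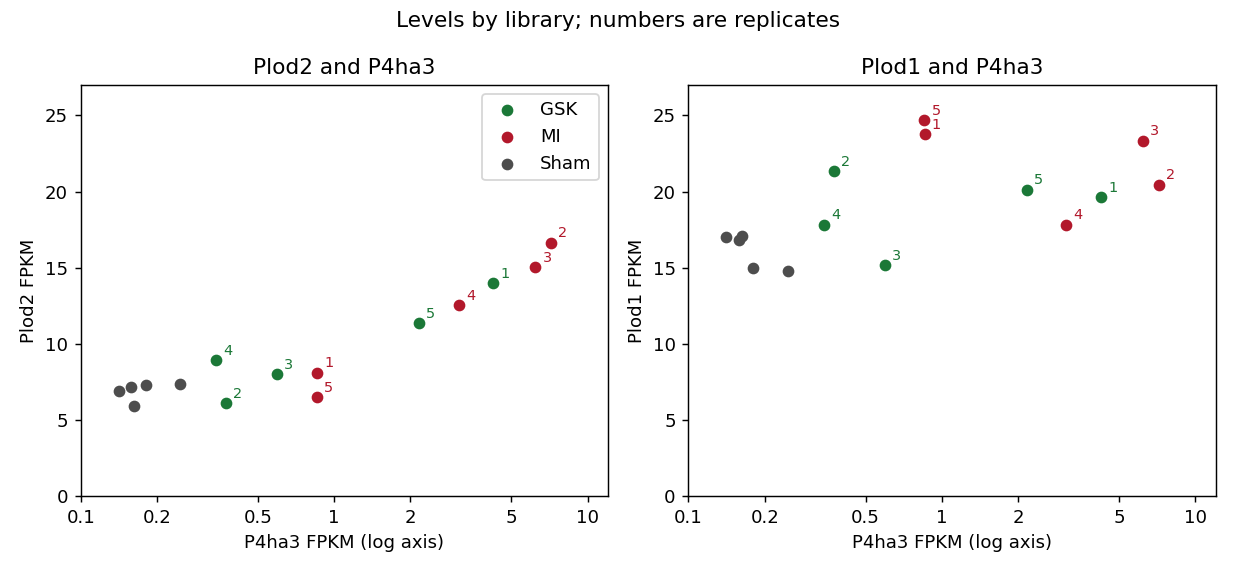
Plod2 (left) and Plod1 (right) against P4ha3, in FPKM, for each library, with P4ha3 on a log axis and the replicate number beside GSK and MI points. Plod2 spans 5.92 FPKM in Sham replicate 5 to 16.7 FPKM in MI replicate 2, the library with the most P4ha3, and follows P4ha3 (r = 0.95 on the log2 scale) more closely than Plod1 does (r = 0.49).

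Among all 12585 tested genes, the 2 whose pattern over the 15 libraries was most like that of each member, by Pearson's r, were as follows. For P4ha3 they were Runx1 (0.99) and 1600012H06Rik (0.98), for P3h1 Kctd11 (0.98) and Mrc2 (0.98), for Plod3 B4galt5 (0.99) and Tubb2b (0.98), and for Pcolce Ctsz (0.98) and Chpf (0.98). For Crtap they were Tmem176a (0.97) and Chst12 (0.97), for Plod2 Gm15867 (0.97) and 1600012H06Rik (0.96), for Serpinh1 Cchcr1 (0.96) and Sec61b (0.96), and for Plod1 Tcf3 (0.94) and Dnm2 (0.93). P4ha1 had Gjb5 (0.92) and Medag (0.91), and P4ha2 had Tmem107 (0.82) and Fam207a (0.81). For deviations from the group means the first gene was the same for P4ha1, P4ha2, Plod3, Serpinh1 and P3h1. It was Ctss for P4ha3 (0.98), Zc3h4 for Plod1 (0.98), Rab32 for Plod2 (0.96), Csrp2 for Crtap (0.93) and Oaf for Pcolce (0.96).

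The sum of Col1a1, Col1a2 and Col3a1, 3 of the collagen genes whose chains these enzymes act on, rose more in MI against Sham than 9 of the 10 transcripts did. The summed Col1a1, Col1a2 and Col3a1 level, the chains of collagens I and III, was 1143, 196, 220.1, 218 and 541 FPKM in GSK ventricles, 419, 925, 1193, 526 and 428 FPKM in MI ventricles and 90.9, 91.4, 106, 72.2 and 71.5 FPKM in Sham ventricles. All infarcted libraries lay above all Sham libraries, and GSK replicate 1 stood among the highest MI libraries. The means were 464 ± 406 FPKM in GSK, 698 ± 345 FPKM in MI and 86.4 ± 14.6 FPKM in Sham ventricles (SD, n = 5 each). Set against this sum in the same library, 9 of the 10 transcripts were lower in MI than in Sham ventricles, with log2 ratio differences from -2.91 for P4ha2 to -1.44 for Pcolce. Each of the 9 separated the groups fully (adjusted exact permutation p = 0.0173). The sum itself rose from a mean of 86.4 FPKM in Sham to 698 FPKM in MI ventricles. A transcript of unchanged level therefore also falls against it, as P4ha2 did with a log2 difference of -0.01 in its own level. How many of all tested genes fall against the sum was not counted. Serpinh1 amounted to 20.0% to 86.0% of the collagen sum in GSK, 23.1% to 62.8% in MI and 118% to 197% in Sham libraries. P4ha1 amounted to 2.03% to 8.66% in GSK, 2.13% to 4.97% in MI and 17.2% to 27.9% in Sham libraries.

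In GSK against Sham ventricles the same 9 ratios were lower, by log2 differences from -2.17 for P4ha2 to -1.10 for Pcolce (adjusted exact p = 0.0173 each). The sum was also higher in GSK than in Sham ventricles, so that the same limit holds. In GSK against MI ventricles none of the 10 ratios was called (adjusted exact p of 0.254 or more). Without GSK replicate 1 the P4ha1 ratio was higher in GSK than in MI ventricles by 1.00 (adjusted exact p = 0.0317). The exception in both comparisons with Sham was P4ha3, whose ratio to the collagen sum was not called. Its log2 ratio, with 0.1 FPKM added, was -8.38 ± 0.44 in GSK, -7.90 ± 0.84 in MI and -8.28 ± 0.24 in Sham ventricles (SD, n = 5 each). The difference was 0.38 ± 0.39 (SE) for MI against Sham (adjusted exact p = 0.487). It depended on the added value, being 0.95 with none (adjusted exact p = 0.161) and -1.18 with 1 FPKM added (adjusted exact p = 0.0166). Without the 3 libraries of high mitochondrial share, or without the 2 mixed Sham libraries, the 9 ratios kept their direction in both comparisons with Sham. They did not pass the threshold after adjustment over the 48 tests (adjusted exact p of 0.0635 or more). With fewer libraries the smallest exact permutation p was 0.0159 or 0.0357, and 10 to 12 of the 16 ratios had it. The lost calls therefore cannot be told apart from the smaller number of libraries.

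**Figure D4:**
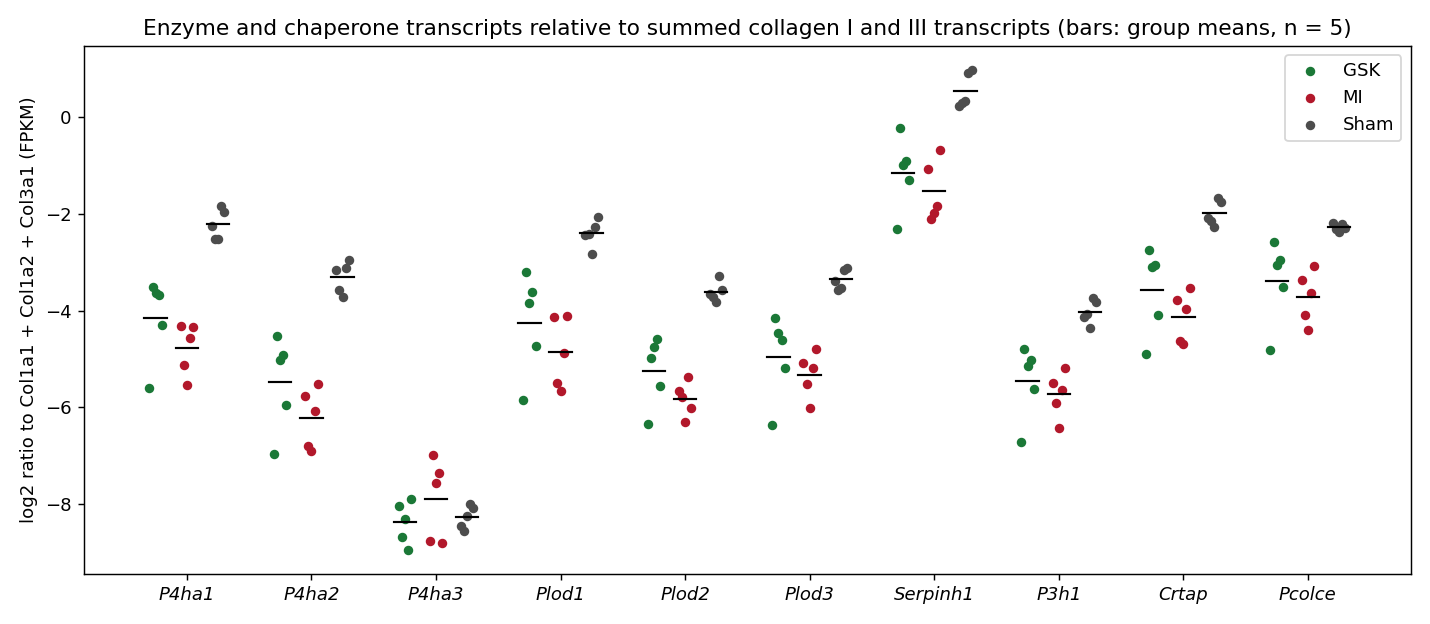
Log2 ratio of each transcript to the sum of Col1a1, Col1a2 and Col3a1 in the same library, with 0.1 FPKM added to both (points, libraries; bars, group means, n = 5), for GSK, MI and Sham ventricles. For 9 transcripts all Sham points lie above all GSK and MI points, while for P4ha3 the 3 groups overlap.

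Markers of activated fibroblasts and macrophages moved with the set. For comparison, 21.9% of all tested genes rose and 21.9% fell in MI against Sham, and 10.8% and 7.58% in GSK against Sham. Of 10 activated fibroblast markers 9 rose and 0 fell in MI against Sham ventricles, 7 rose in GSK against Sham (4 without GSK replicate 5) and 0 were called in GSK against MI. Their summed level was 248.5 to 687 FPKM in GSK, 341 to 951 FPKM in MI and 163 to 199.5 FPKM in Sham libraries. Of 9 tested macrophage and monocyte markers 9 rose in MI against Sham and 6 in GSK against Sham, with sums of 396 to 916 FPKM in GSK, 572 to 983 FPKM in MI and 267 to 336 FPKM in Sham libraries. General fibroblast markers did not move as one, with 4 of 10 higher and 2 lower in MI against Sham, and sums of 999 to 1458 FPKM in GSK, 767 to 1107 FPKM in MI and 1093 to 1592 FPKM in Sham libraries. Of 10 cardiomyocyte markers 7 fell in MI against Sham and 2 in GSK against Sham, and with any 1 library left out the GSK against Sham count was 0 to 4. None of the genes of these 4 lists was at 0 throughout a group. Cartilage and bone markers, in whose tissues these enzymes are also abundant, were near 0, with sums of at most 1.40 FPKM in any library. The part of cell make-up in the differences of the 10 transcripts was not tested.

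Genes that work beside the 10 in modification and folding moved in part. Of 21 such genes, 9 rose and 4 fell in MI against Sham ventricles, with a median log2 difference of 0.29. That is 42.9% higher and 19% lower, where 21.9% of all tested genes rose and 21.9% fell. Sparc averaged 393 ± 192 FPKM in GSK, 563 ± 171 FPKM in MI and 95.2 ± 13.5 FPKM in Sham ventricles (SD, n = 5 each), and this collagen-binding glycoprotein rose in MI against Sham by 2.51 (adjusted p = 2.98e-05) and in GSK against Sham by 1.91 (adjusted p = 0.000724). Colgalt1 averaged 19.9 ± 2.08 FPKM in GSK, 24.4 ± 2.35 FPKM in MI and 14.2 ± 0.749 FPKM in Sham ventricles (SD, n = 5 each). It encodes a galactosyltransferase that acts on hydroxylysine and rose in MI against Sham by 0.74 (adjusted p = 3.21e-05). P4hb, the other subunit of prolyl 4-hydroxylase, rose by 0.88 (adjusted p = 0.000129), and Fkbp10, a prolyl isomerase that assists Plod2, by 1.12 (adjusted p = 0.000206). The cyclophilin B gene Ppib rose by 0.78 (adjusted p = 0.000566) and P3h3, a further prolyl 3-hydroxylase, by 1.12 (adjusted p = 0.000483). The 4 that fell were Canx, a lectin chaperone, P3h4, a partner of P3h3, P4htm, a transmembrane prolyl hydroxylase, and Tmem38b, an ion channel of the endoplasmic reticulum, by -0.38 to -0.28. Canx, P3h4, P4htm, Tmem38b, Ppib and P3h3 were named after their values were seen. With any 1 library left out the count lower in MI against Sham was 1 to 4, the 1 being without Sham replicate 5. GSK against Sham had 6 higher and 1 lower, and 3 to 6 higher and 0 to 1 lower with any 1 library left out. The 6 and the 1 are 28.6% and 4.76%, where 10.8% of all tested genes rose and 7.58% fell. GSK against MI had 0 called, the lowest p being those of Colgalt1 (-0.29, adjusted p = 0.116) and Fkbp10 (-0.56, adjusted p = 0.122).

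Of 17 tested genes for procollagen export and processing, 7 rose and 3 fell in MI against Sham. That is 41.2% higher and 17.6% lower, against 21.9% and 21.9% of all tested genes. Adamts2, which removes the N-propeptide, rose by 2.02 (adjusted p = 3.59e-05). Sec24d and Creb3l1, a coat protein of the vesicles that leave the endoplasmic reticulum and a transcription factor of the secretory pathway, rose by 0.44 (adjusted p = 0.000285) and by 0.81 (adjusted p = 0.000982). Trappc2, a part of a vesicle tethering complex, fell with -0.33 (adjusted p = 0.000811). Without MI replicate 4 the count lower in MI against Sham was 5. GSK against Sham had 4 higher and 1 lower, and 2 to 6 higher and 0 to 3 lower with any 1 library left out. The 4 and the 1 are 23.5% and 5.88%, against 10.8% and 7.58% of all tested genes. GSK against MI had none called, the lowest p being those of Sec13 (-0.24, adjusted p = 0.155) and Bmp1 (-0.55, adjusted p = 0.213), the C-proteinase that Pcolce enhances.

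Of 13 tested collagen genes for fibrils and basement membrane 8 rose in MI against Sham and 10 in GSK against Sham, with none lower and median log2 differences of 1.53 and 0.98. Of all tested genes, 21.9% rose and 21.9% fell in MI against Sham, and 10.8% and 7.58% in GSK against Sham. Col3a1 averaged 226 ± 188 FPKM in GSK, 330.1 ± 132 FPKM in MI and 43.4 ± 6.76 FPKM in Sham ventricles (SD, n = 5 each), and Col4a1 averaged 145 ± 53.7 FPKM in GSK, 191 ± 48.9 FPKM in MI and 62.0 ± 10.9 FPKM in Sham ventricles (SD, n = 5 each); they rose in MI against Sham by 2.82 (adjusted p = 0.000102) and by 1.59 (adjusted p = 0.000135). Col5a2 and Col4a2 rose by 2.78 (adjusted p = 0.000112) and by 1.53 (adjusted p = 0.000128). In GSK against MI none was called. The 2 of lowest p, Col4a4 (0.52, adjusted p = 0.114) and Col4a3 (0.43, adjusted p = 0.116), were higher in GSK ventricles and were also called higher in GSK against Sham, by 0.51 (adjusted p = 0.0298) and by 0.53 (adjusted p = 0.0112). All 5 lysyl oxidases, which cross-link the lysines and hydroxylysines of finished fibrils, rose in both comparisons with Sham. Lox averaged 25.2 ± 25.6 FPKM in GSK, 59.3 ± 53.6 FPKM in MI and 1.49 ± 0.421 FPKM in Sham ventricles (SD, n = 5 each), with 4.04 (adjusted p = 0.000346) in MI against Sham and 2.83 (adjusted p = 0.0124) in GSK against Sham, while Loxl2, Loxl1 and Loxl4 rose in MI against Sham by 2.33 (adjusted p = 2.98e-05), by 1.84 (adjusted p = 0.000147) and by 0.91 (adjusted p = 0.000262). The members' enzymes also act on proteins outside the collagen family that hold a collagen helix. The list used for them also held the collagen gene Col13a1, and Ache, whose product has no such helix itself. Of 13 tested, 7 rose and 1 fell in MI against Sham (2 fell without MI replicate 1 or Sham replicate 4), among them the elastic fibre protein Emilin1 (1.65, adjusted p = 4.95e-05), the ficolin Fcna (1.23, adjusted p = 8.17e-05) and the complement genes C1qb (1.40, adjusted p = 0.000183) and C1qc (1.30, adjusted p = 0.000251), which are also macrophage genes.

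Among genes tied to the enzymes' chemistry and to stress, several counts lay near the shares of all tested genes in MI against Sham, 21.9% higher and 21.9% lower. In GSK against Sham these shares were 10.8% and 7.58%. Of 18 tested genes that HIF-1 raises in low oxygen, a class to which P4ha1, P4ha2, Plod1 and Plod2 are also known to belong, 3 rose and 4 fell in MI against Sham, or 16.7% and 22.2%, with a median log2 difference of 0.01. Without MI replicate 5 the count higher was 5. Egln1 averaged 121 ± 13.8 FPKM in GSK, 88.7 ± 14.1 FPKM in MI and 184 ± 16.9 FPKM in Sham ventricles (SD, n = 5 each). This oxygen-sensing prolyl hydroxylase fell in MI against Sham, with -1.06 (adjusted p = 3.59e-05). Mxi1 and Pdk1 fell with -0.50 (adjusted p = 0.000456) and -0.43 (adjusted p = 0.00351), and Pfkfb4 rose by 0.49 (adjusted p = 0.00253). GSK against Sham had 0 higher and 4 lower. Of 20 other dioxygenases that use 2-oxoglutarate, 0 rose and 9 fell in MI against Sham, or 45% lower, and 3 fell in GSK against Sham. Without MI replicate 4 or 5, 1 of them rose in MI against Sham, as 1 did in GSK against Sham without MI replicate 5. Besides Egln1, these included the RNA demethylase Alkbh5 (-0.47, adjusted p = 0.000105), the asparaginyl hydroxylase Hif1an (-0.53, adjusted p = 0.000535) and the histone demethylase Kdm6b (-0.55, adjusted p = 0.000611). Of 8 tested genes of vitamin C and iron supply 4 rose and 1 fell in MI against Sham, and 0 were called in GSK against Sham (1 higher without MI replicate 2). The zinc transporter Slc39a13 rose by 0.58 (adjusted p = 0.00302), the transporter Slc2a1, which carries glucose and dehydroascorbate, by 0.74 (adjusted p = 0.00855) and the vitamin C transporter Slc23a2 by 0.32 (adjusted p = 0.0143), while the iron exporter Slc40a1 fell with -0.53 (adjusted p = 0.0130). Of 20 genes of the heat shock and unfolded protein responses 1 rose and 4 fell in MI against Sham, or 5% and 20%. The count higher was 1 to 4 with any 1 library left out, the 4 being without MI replicate 1. Atf4 rose by 0.46 (adjusted p = 0.0144), and Herpud1, Dnajb9 and Hsph1 fell with -0.93 (adjusted p = 0.000936), -0.80 (adjusted p = 0.00215) and -0.61 (adjusted p = 0.00304).

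None of the genes of these lists was called in GSK against MI, and 0 to 2 of a list were with any 1 library left out, in each case MI replicate 1 or GSK replicate 5. There the lowest p of each list belonged to Emilin1 (-0.67, adjusted p = 0.120) and Fcna (-0.58, adjusted p = 0.115) among the helix proteins, and to Loxl4 (-0.32, adjusted p = 0.227) and Loxl2 (-0.53, adjusted p = 0.260) among the lysyl oxidases. In the oxygen, dioxygenase and vitamin C lists they were Egln1 (0.45, adjusted p = 0.112), Hif1an (0.29, adjusted p = 0.134), Slc39a13 (-0.49, adjusted p = 0.109) and Slc2a1 (-0.58, adjusted p = 0.145). In the stress list they were the small heat shock protein gene Hspb1 (-0.998, adjusted p = 0.115) and Atf4 (-0.39, adjusted p = 0.150).

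**Figure D5:**
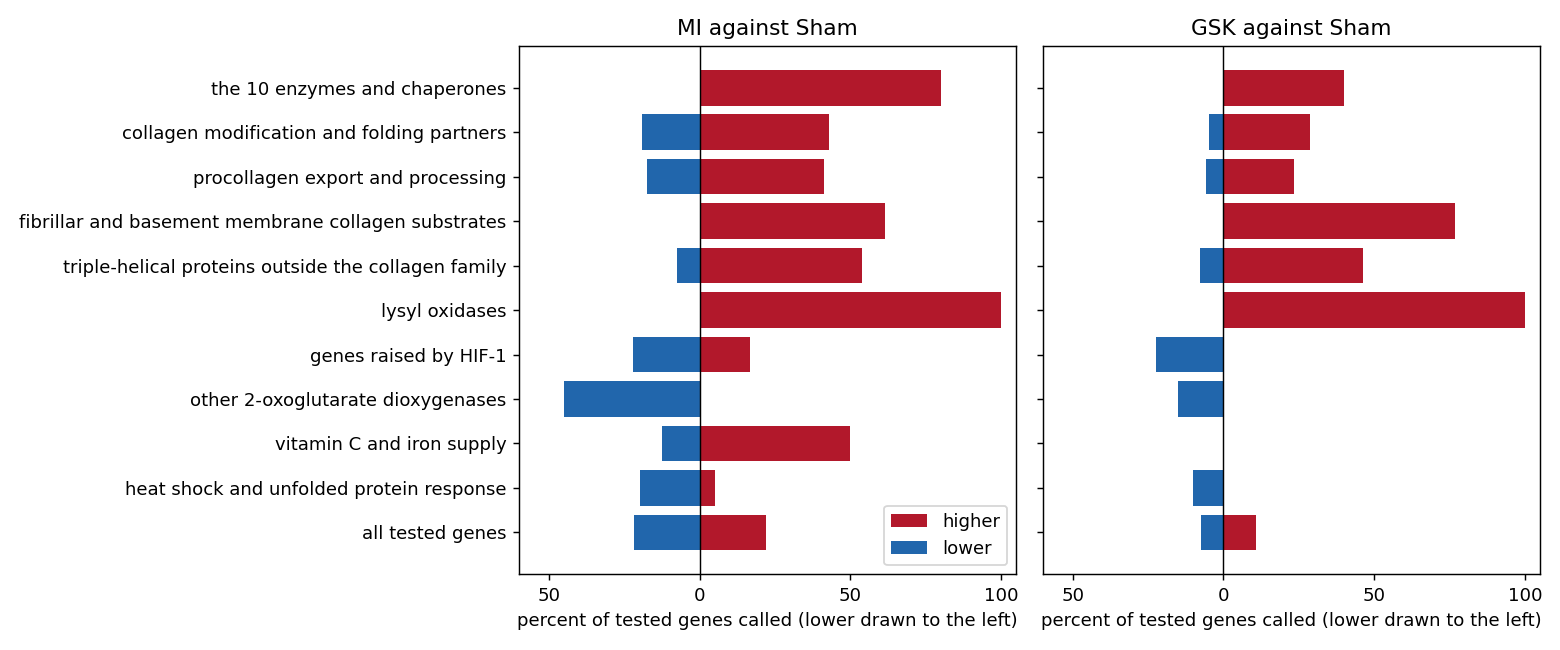
Percent of tested genes called higher (right) and lower (left) by limma at an adjusted p under 0.05, for the 10 transcripts, 9 lists of related genes and all tested genes, in MI against Sham and GSK against Sham. In MI against Sham 8 of 10 members and 5 of 5 lysyl oxidases were higher, against 21.9% of all genes, and 9 of 20 other dioxygenases were lower.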

How the data were processed

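The authors deposited FPKM values for 54532 genes with gene length and mm10 coordinates; those of the 10 members equal GENCODE vM21. The submitters' processing notes name R 3.5.1, DESeq2, Subread, featureCounts and HISAT2, without role or order. The strand setting and the handling of fragments shared by overlapping genes are not given there. Every value times gene length was a whole multiple of a library's step (100% within 0.01), which gave the fragments per gene: 21.5 M to 26.8 M per library. Nothing marks the 5 libraries of a group as technical repeats, and the protocols speak of independent mice. Counting error is relatively largest for P4ha3 in Sham, at 11 to 17 fragments per library. It is also not small beside the spread of the Sham libraries for P3h1 and Crtap. P3h1 had 412 to 513 fragments there and a coefficient of variation of 3.23%, and Crtap 801 to 904 fragments and 3.90%.

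Genes that reached 1 FPKM in 5 or more libraries were fitted as log2(FPKM + 1) with limma 3.58.1 in R 4.3.3 (group means over all 15 libraries, eBayes with trend, Benjamini-Hochberg over 12585 genes). Voom on recovered fragments was an alternative, as the unit is FPKM. Log2 ratios within a library, with 0.1 FPKM added, were tested by exact permutation (two-sided, all 252 assignments of 5 libraries against 5) and adjusted over 48 tests. In all, 27 other settings were tried. The members and gene lists were chosen with earlier results of these data known. Named are all members, per list the 4 genes of lowest p in MI against Sham and the 2 of lowest p in GSK against MI, and per member the 2 genes of highest correlation. Promoter sequences are RefSeq's on GRCm38.p6, the build of mm10.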

Additional observations from a re-analysis of the deposited data

Results flagged for a closer look

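Among 78 sets of 5 values, the FPKM of each member and the log2 ratios in each group, 2 held a library whose gap to its nearest neighbour, divided by the range of the group, was above the critical value of Dixon's test for 5 values (0.71). Chance alone gives about 1 such set in 20. Both concern the log2 ratio of P3h1 to Crtap. MI replicate 2 had the highest ratio of the MI libraries, -1.27, with a gap of 0.789 of the range; it also had the highest P3h1 level of all libraries, 15.3 FPKM. Sham replicate 2, a mix of 2 animals, had the highest ratio of the Sham libraries, -1.92, with a gap of 0.855 of the range. All 5 MI ratios stayed above all 5 Sham ratios, so the order of the groups does not rest on either library.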

How the results depend on the processing

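Of the 10 members, 8 were called in MI against Sham, and 7 to 9 with any 1 library left out. The count was 4 with the mitochondrial share as covariate, where 2044 of all tested genes were called higher. It was 6 without the 2 mixed Sham libraries, where 2214 were. In GSK against MI 0 were called, and 0 to 1 with a library left out. In GSK against Sham 4 were called, 2 to 4 with a library left out, 2 without the filter on low values, and 1 each with a replicate block, without the 2 GSK libraries whose names carry G and without the 2 mixed Sham libraries. The count was 6 without the 3 libraries of high mitochondrial share, where 1632 of all tested genes were called higher. It was 5 with mitochondrial genes left out and totals equalised, where 1960 were. Same-numbered libraries did not deviate together (correlations of deviations from -0.41 to 0.49, with 2, 1 and 0 of 10 libraries correlating best with their own number in the 3 comparisons), so the block does not pair animals; with the block 7 members were called in MI against Sham and 0 in GSK against MI.

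Over all genes, 5515 were called in MI against Sham (4692 to 5674 with a library left out, 3270 at a minimum of 5 FPKM). In GSK against MI 0 were called (0 to 392 with a library left out, 3 with a pseudocount of 0.1, 2 with voom). In GSK against Sham 2308 were called (1185 to 2888 with a library left out, 1384 at a minimum of 5 FPKM, 3515 with the mitochondrial covariate, 3477 in a fit of those groups alone, 1459 with the block, 1392 without the G libraries, 1242 without the mixed Sham libraries). With mitochondrial genes left out and totals equalised the split of higher to lower calls was 3314 to 1897 in MI against Sham, against 2757 to 2758, and 1960 to 425 in GSK against Sham, against 1354 to 954.

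Of 16 ratios 13 were called in MI against Sham and 12 to 13 with a library left out. In GSK against Sham 11 were called and 10 to 11 with a library left out. Of the 13 and of the 11, 9 each are ratios to the collagen sum. That sum was higher than in Sham in both comparisons, so that a transcript of unchanged level also falls against it. In GSK against MI 0 ratios were called, and 0 to 1 with a library left out. The count was 0 in MI against Sham without the mixed Sham libraries or the 3 libraries of high mitochondrial share, and 0 in GSK against Sham without either of these or the G libraries, where the lowest p after adjustment over the 48 tests was 0.0635 to 0.0779. In these settings the smallest exact permutation p was 0.0159 or 0.0357, at which 10 to 12 of the 16 ratios lay. These counts of 0 therefore cannot be told apart from the smaller number of libraries.

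Signs turned for P4ha2 in MI against Sham: 0.0743 with mitochondrial genes left out and totals equalised, 0.00767 without the mixed Sham libraries, 0.0186 without the 3 libraries of high mitochondrial share, and -0.0629 to 0.0417 with any 1 library left out. For P4ha2 they turned in GSK against MI (0.0714 with the covariate, 0.00311 without the 3 libraries) and in GSK against Sham (0.0221 with totals equalised, 0.0217 without the 3 libraries), and for Serpinh1 in GSK against MI (0.0533 with the covariate). The P4ha3 to collagen ratio with 1 FPKM added was -1.18 in MI against Sham and 0.0115 in GSK against MI; in GSK against Sham it was 0.349 with none added, 0.0647 without the 3 libraries and -0.221 to 0.0405 with any 1 library left out. In GSK against MI the Plod2 to Plod1 ratio was 0.0626 without the 3 libraries, 0.0677 without the G libraries and -0.256 to 0.173 with any 1 library left out, and the Serpinh1 to Pcolce ratio -0.0738 without the G libraries and -0.0410 to 0.118 with any 1 left out. The Plod2 to Plod3 ratio in GSK against Sham was 0.00135 without the mixed Sham libraries, 0.0362 without the G libraries and -0.115 to 0.0962 with any 1 left out. The cause was not tested. Depth limits P4ha3 most, since it rests on 11 to 17 fragments in Sham libraries.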
